A study of Mus musculus with 16 samples.

Results

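The 8 genes described here belong to the pathway of presentation by major histocompatibility complex (MHC) class II. Their transcripts were read in neutrophils sorted from the livers of mice. They were taken by symbol, as H2-Aa, H2-Ab1, H2-Eb1, H2-DMa, H2-DMb1, Cd74, Ciita and Ctss, and all 8 were found among the 54532 gene identifiers of the count table. All 8 also passed the filter on low counts, which kept 9851 genes. Each of 8 mice, numbered 2 to 9, gave 1 library of Ifngr1_KO neutrophils and 1 library of WT neutrophils, so each group holds 8 libraries. Ifngr1_KO cells came from CD45.2+ marrow lacking Ifngr1, the ligand-binding chain of the receptor for interferon gamma (IFN-gamma), and WT cells from CD45.1+ wild-type marrow. Both were C57BL/6 cells in the same irradiated wild-type hosts (about 1000 cGy), which had received 50% of each marrow and 8 weeks to rebuild their blood. All hosts then carried MC38 colon carcinoma cells as a tumour in the flank, and 1 week later all received an agonist antibody against CD40. Livers were taken 2 days after the antibody, and neutrophils were sorted by CD45 type. The animals' ages are not given in the labels. The labels name no promoter or Cre that would limit the loss of the receptor to a cell type. Marrow donor, CD45 type and sort gate go with genotype in every mouse, and cannot be told apart from loss of the receptor.

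MHC class II molecules are pairs of an alpha and a beta chain that carry peptides from endosomes to the cell surface, where CD4+ T cells read them. The invariant chain, encoded by Cd74, fills the groove of new pairs and leads them to the endosome. There, proteases such as cathepsin S (Ctss) cut the invariant chain down to a small fragment, and the editor H2-DM (H2-DMa and H2-DMb1) exchanges that fragment for a peptide. Ciita encodes the coactivator that switches on the class II chains, the invariant chain and H2-DM together. In many cells IFN-gamma induces Ciita, in part through the transcription factor Irf1. Dendritic cells, B cells and macrophages make class II steadily, whereas neutrophils are best known for making little of it at rest.

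The classical chain genes are controlled through short promoter boxes. The X box is bound by the RFX complex and the Y box by NF-Y, and Ciita joins the factors assembled there without binding DNA itself. The promoter table from RefSeq (GRCm38, the build also called mm10) held an entry for 5 of the 8 genes. Short motifs are marked by exact match in the stretches below. The stretches come from 2 chains, 1 chain of the editor, and the only gene of the group whose transcript was called different between genotypes. Each is 100 bases, read 5′ to 3′ on the gene's own strand.
H2-Aa, chr17:34287824-34287923, minus strand: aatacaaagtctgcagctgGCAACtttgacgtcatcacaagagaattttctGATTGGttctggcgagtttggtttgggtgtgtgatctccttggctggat
H2-Eb1, chr17:34305757-34305856, plus strand: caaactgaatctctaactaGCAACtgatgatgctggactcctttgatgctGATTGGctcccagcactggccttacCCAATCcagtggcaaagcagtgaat
H2-DMb1, chr17:34153081-34153180, plus strand: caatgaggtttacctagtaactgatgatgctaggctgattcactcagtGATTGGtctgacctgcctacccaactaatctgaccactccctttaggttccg
Ctss, chr3:95526726-95526825, plus strand: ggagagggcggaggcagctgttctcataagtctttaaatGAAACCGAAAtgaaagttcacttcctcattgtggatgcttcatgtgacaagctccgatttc
Capitals mark GCAAC, a core of the X box, GATTGG, the Y box (CCAAT on the other strand), and GAAA, any 2 bases and GAAA again, a core of the element that interferon regulatory factors bind. All were searched on both strands of 300-base promoters, from 250 bases before to 50 bases after the start.

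H2-Aa held GCAAC 81 bases and GATTGG 49 bases before its start. H2-Eb1 held them 91 and 60 bases before its start, and GATTGG again on the other strand, 35 bases before its start. GCAAC followed by GATTGG, with their first bases 25 to 40 apart, occurred in 92 of 32851 promoters, or 0.280%. That spacing was chosen after the sequences were seen. GCAAC alone occurred in 35.2% and GATTGG alone in 16.1% of all promoters, so either by itself is common. The promoter of H2-DMb1 held GATTGG 62 bases before its start and no exact GCAAC followed by it. That start is the one in RefSeq. In the GENCODE annotation the gene begins earlier, at 34153072, so the stretch shown lies inside it. In the H2-DMb1 stretch, gtaac stands before GATTGG and differs from GCAAC in a single letter. Only exact letters were searched, so a box that varies in a letter was not marked or counted. Neither of the 2 promoters of H2-DMa held the exact pair. The promoter of Ctss held the paired GAAA motif 21 bases before its start, a motif found in 3.44% of all promoters, and not the pair. These matches describe letters and are not shown to be sites.

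The libraries held 12.5 to 21.7 M estimated counts, with 13.9 ± 1.502 M in Ifngr1_KO and 16.9 ± 3.27 M in WT (SD, n = 8). Levels are given in CPM, a gene's counts scaled to the size of its library, with library sizes adjusted by the trimmed mean of M values (TMM). Transcripts of 8 neutrophil markers, S100a8 and Ly6g among them, summed to 27319 to 83274 CPM in Ifngr1_KO and 32011 to 54243 CPM in WT. Ifngr1 itself had 83.9 ± 29.5 CPM in Ifngr1_KO and 305 ± 46.6 CPM in WT (SD, n = 8), with no overlap between the groups. The Ifngr1_KO library of mouse 7 stood apart, with a median correlation of 0.762 to the others, and results that change without mouse 7 are given with and without it. Mitochondrial transcripts took 0.662% to 4.10% of counts in Ifngr1_KO and 0.391% to 1.57% in WT. In RNA from a sorted population, fewer cells of a type and less RNA per cell cannot be told apart.

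Of the 8 genes, 1 fell in Ifngr1_KO, none rose and 7 were not called. The gene that fell was Ctss. Calls are an adjusted p under 0.05 in edgeR's quasi-likelihood test with the mouse as a block, with Benjamini-Hochberg adjustment over 9851 genes. Of all genes tested 2.8% were called, 2.32% as lower and 0.477% as higher, so 1 of 8 is a small count to set beside that share. All 8 libraries of Ifngr1_KO lay below, or all above, those of WT for 1.48% and 0.173% of genes, and Ctss was the only one of the 8 without overlap. All 8 fitted log2 fold changes (Ifngr1_KO over WT) were below 0, with a median of -0.42, beside a median of 0.05 over all genes tested. An unadjusted p under 0.05 was reached by 5 of the 8 genes, beside 16.3% of all genes. These are counts of genes that share libraries and, in part, control, and not independent draws.

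**Figure D1:**
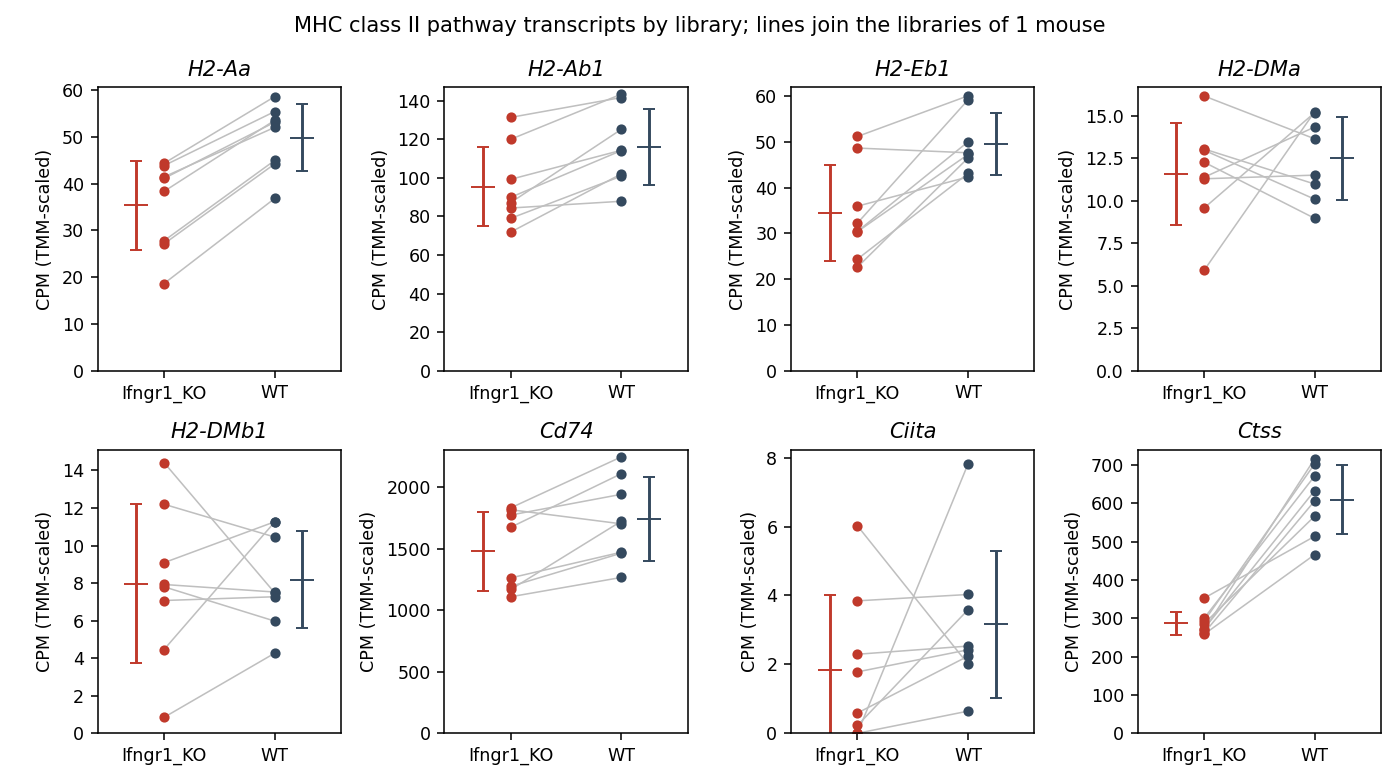
Level of each of the 8 genes in CPM in every library, with 1 panel per gene, Ifngr1_KO at left and WT at right and a line joining the 2 libraries of a mouse. The Ctss points of Ifngr1_KO, from 258 to 353 CPM, all lie below those of WT, from 467 to 717 CPM, and the groups of the other 7 genes overlap.

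The transactivator came first in the pathway and lowest in level. Ciita (ENSMUSG00000022504, chromosome 16, 10480059 to 10528418, plus strand) had a lowest, median and highest level of 0, 1.18 and 6.02 CPM in Ifngr1_KO, against 0.643, 2.48 and 7.82 CPM in WT. By mouse from 2 to 9, its counts were 4, 0, 8, 48, 32, 0, 33 and 78 in Ifngr1_KO, against 71, 10, 27, 77, 48, 106, 36 and 32 in WT. The Ifngr1_KO libraries of mice 3 and 7 held no count, whereas that of mouse 9 held more than its WT partner, and the groups overlapped widely. A count of 0 allowed up to 0.1998 CPM in the library of mouse 3 by the rule of 3 counts, which covers counting error only. The fitted log2 change was -1.67 (SE 1.07, adjusted p = 0.479), with a 95% interval of -4.21 to 0.88. Ciita was lower in Ifngr1_KO in 7 of 8 mice. Over the 18 alternatives it lay between -2.22 and -0.23, and it was -1.10 without mouse 7, whose WT library held the highest level. At this depth neither no difference nor a fall of several fold lies outside that interval.

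Upstream of Ciita, Irf1 fell in Ifngr1_KO. Irf1, a transcription factor that IFN-gamma induces, had 482 ± 155 CPM in Ifngr1_KO and 2478 ± 677 CPM in WT (SD, n = 8), with a log2 fold change of -2.40 (SE 0.19, adjusted p = 4.1e-05). The groups did not overlap. Ifngr2, the other chain of the receptor, and the receptor's kinases Jak1 and Jak2 were not called. None of the 6 tested genes of the factors on the promoter boxes was called, out of 7 listed (Rfx5, Rfxank, Rfxap, Nfya, Nfyb, Nfyc and Creb1). Nfyc, a subunit of NF-Y, had 31.5 ± 12.7 CPM in Ifngr1_KO and 32.2 ± 15.8 CPM in WT (SD, n = 8). Creb1, which binds a box between X and Y, had 31.2 ± 12.9 CPM in Ifngr1_KO and 34.5 ± 7.55 CPM in WT (SD, n = 8).

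The 3 classical chain genes had lower mean levels in Ifngr1_KO, and none passed the threshold. H2-Aa (ENSMUSG00000036594, chromosome 17, 34282744 to 34287823, minus strand) encodes the alpha chain of I-A. Its lowest, median and highest levels were 18.6, 39.8 and 44.4 CPM in Ifngr1_KO, against 36.9, 52.6 and 58.6 CPM in WT. The groups overlapped, yet within each of the 8 mice the Ifngr1_KO library was the lower one. Such a run of 8 mice occurred for 4.93% of all genes in this direction. The log2 fold change of H2-Aa was -0.54 (SE 0.13, adjusted p = 0.0548, 95% interval -0.84 to -0.23). Without mouse 7, whose Ifngr1_KO library stood apart, H2-Aa was called at -0.51 (edgeR adjusted p = 0.0442).

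H2-Ab1 (ENSMUSG00000073421, chromosome 17, 34257689 to 34269419, plus strand) encodes the beta chain that pairs with the product of H2-Aa. It had a lowest, median and highest level of 71.9, 88.5 and 131 CPM in Ifngr1_KO, against 87.8, 114 and 143 CPM in WT. It too was lower in Ifngr1_KO in 8 of 8 mice although the groups overlapped. Its log2 fold change was -0.29 (SE 0.10, adjusted p = 0.175, 95% interval -0.53 to -0.05). H2-Eb1 (ENSMUSG00000060586, chromosome 17, 34305867 to 34316674, plus strand) encodes the beta chain of I-E, which C57BL/6 mice cannot complete because their H2-Ea gene is defective. H2-Eb1 had a lowest, median and highest level of 22.6, 31.3 and 51.2 CPM in Ifngr1_KO, against 42.3, 47.4 and 60.1 CPM in WT. It was lower in Ifngr1_KO in 7 of 8 mice, and the exception was mouse 4. Its log2 fold change was -0.57 (SE 0.15, adjusted p = 0.0869, 95% interval -0.93 to -0.20). The H2-Ea locus, annotated as the pseudogene H2-Ea-ps, had 0 counts in all 16 libraries.

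The invariant chain gene was by far the most abundant of the 8. Cd74 (ENSMUSG00000024610, chromosome 18, 60803848 to 60812652, plus strand) had a lowest, median and highest level of 1110.4, 1469.8 and 1834 CPM in Ifngr1_KO, against 1268, 1714 and 2248 CPM in WT. The groups overlapped over most of their range. Its log2 fold change was -0.24 (SE 0.089, adjusted p = 0.204, 95% interval -0.45 to -0.03), and it was lower in Ifngr1_KO in 7 of 8 mice. The exception was mouse 9, with 1818 CPM in Ifngr1_KO and 1704 CPM in WT. The interval holds no fall as deep as a halving of the level.

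The peptide editor was low in both genotypes. H2-DMa (ENSMUSG00000037649, chromosome 17, 34119541 to 34139101, plus strand) had a lowest, median and highest level of 5.91, 11.8 and 16.2 CPM in Ifngr1_KO, against 8.97, 12.6 and 15.3 CPM in WT. The groups overlapped, 4 of 8 mice were lower in Ifngr1_KO, and the log2 change was -0.13 (SE 0.25, adjusted p = 0.838). H2-DMa overlaps Brd2 on the opposite strand, and Brd2 had 25768 counts over the 16 libraries beside 2950 for H2-DMa. The library chemistry does not mark strand, so the level of H2-DMa is uncertain.

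H2-DMb1 (ENSMUSG00000079547, chromosome 17, 34153072 to 34160230, plus strand) had a lowest, median and highest level of 0.849, 7.86 and 14.4 CPM in Ifngr1_KO, against 4.27, 7.502 and 11.3 CPM in WT. It was lower in Ifngr1_KO in 4 of 8 mice (log2 fold change -0.25, SE 0.37, adjusted p = 0.777). H2-DMb2 is its near copy, so reads could be split between them in more than 1 way. The share assigned to H2-DMb1 ran from 14.5% to 77.3% of their sum in Ifngr1_KO and from 23.9% to 82.5% in WT. Their sum was 17.3 ± 6.77 CPM in Ifngr1_KO and 18.2 ± 2.58 CPM in WT (SD, n = 8).

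Ctss was the exception. It encodes cathepsin S, the endosomal cysteine protease that makes the last cuts in the invariant chain (ENSMUSG00000038642, chromosome 3, 95526786 to 95556403, plus strand). Its lowest, median and highest levels were 258, 279.5 and 353 CPM in Ifngr1_KO, against 467, 620.4 and 717 CPM in WT. Every Ifngr1_KO library lay below every WT library, and the Ifngr1_KO mean was 287 ± 30.5 CPM, against 610.1 ± 89.6 CPM in WT (SD, n = 8). Fitted over the 8 mice, the log2 fold change of Ctss was -1.08 (SE 0.11, adjusted p = 2.28e-04, 95% interval -1.35 to -0.82), and the Ifngr1_KO level was 47.2% of that in WT. Within mice the log2 ratio ran from -1.41 in mouse 6 to -0.54 in mouse 7. The call held under all 18 alternatives tried, with log2 fold changes of -1.21 to -0.97. Without mouse 7 the log2 fold change was -1.16.

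The change of Ctss was also set against those of the other 7 genes within the same mice. Ctss had been picked out by its values, so these differences are a description without a test. The log2 ratio of Ctss minus that of H2-Ab1 averaged -0.79 ± 0.27 and that of Ctss minus Cd74 -0.84 ± 0.29 (SD, n = 8), with Ctss the lower in 8 of 8 mice in both. Against H2-Aa, H2-Eb1 and H2-DMa the difference was -0.55, -0.52 and -0.95, each in 7 of 8 mice. Against H2-DMb1 it was -0.85 in 6 of 8 mice, and against Ciita -0.05 ± 1.92 in 4 of 8 mice.

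**Figure D2:**
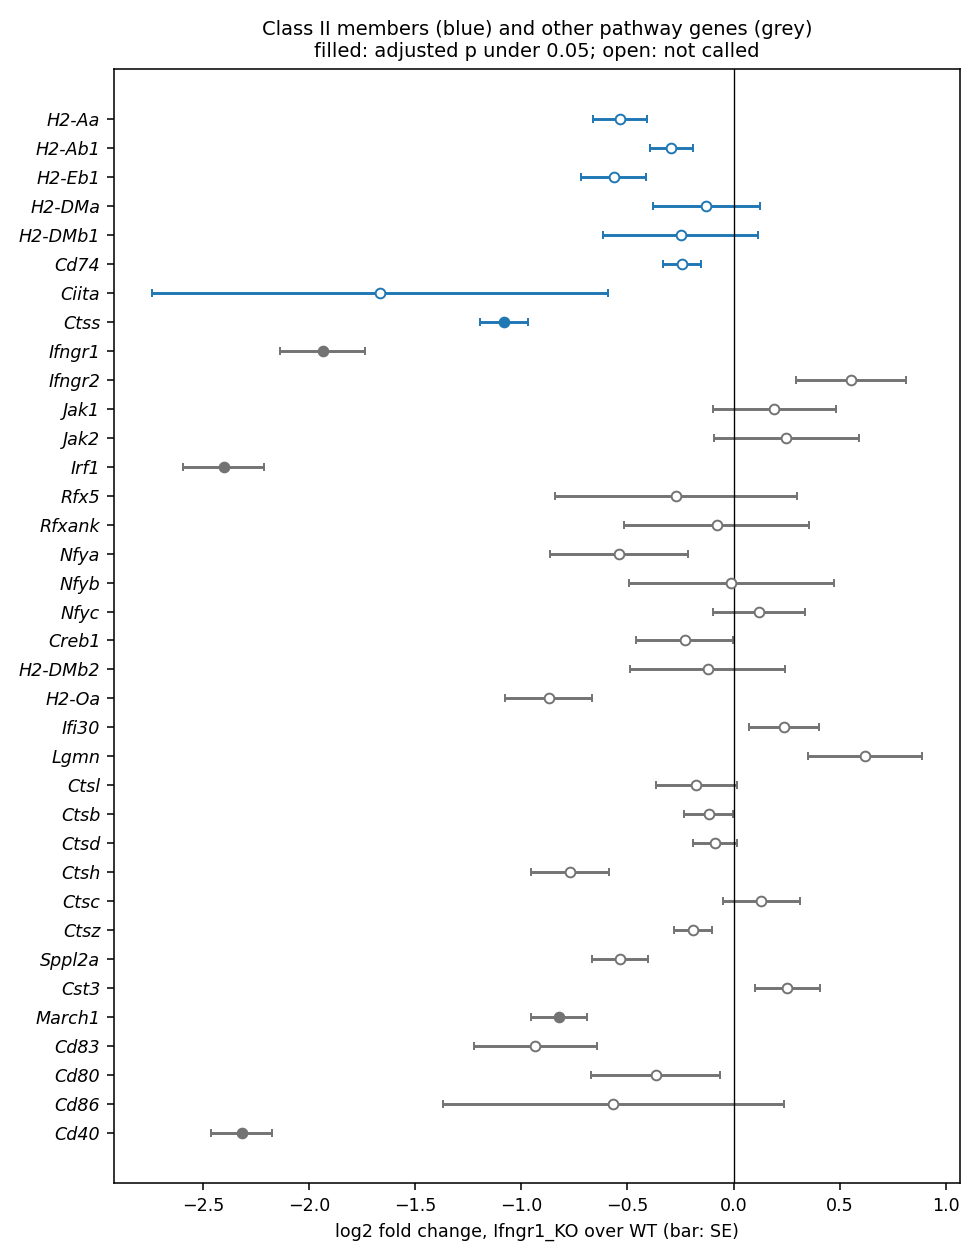
Log2 fold change (Ifngr1_KO over WT) of the 8 genes and of other tested genes of the pathway, with bars for the SE on each side and filled points for an adjusted p under 0.05. March8, a pathway gene with a large SE, is left out. Ctss is the filled point among the 8 genes, and Ifngr1, Irf1, March1 and Cd40 are filled among the others.

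Around the 8 genes, 34 further genes of the pathway were listed by role, and 30 of them were tested. Of these 5 fell, none rose and 25 were not called, so 16.7% were called, beside 2.8% of all genes tested. The median log2 fold change of the 30 was -0.18. Without mouse 7, edgeR called 6 lower and 2 higher, the additions being H2-Oa (lower) and Lgmn and March8 (higher). Some alternatives with all mice also called genes higher, as 2 with the Kupffer cell and monocyte sum as a covariate, 1 with DESeq2 and 1 with limma-voom, and each of these was Lgmn or March8. Among the 5 that fell as reported were Ifngr1, the gene lacking in Ifngr1_KO, and Irf1, March1 and Cd40. None of the 5 had overlapping groups, beside 1.48% of all genes tested without overlap in this direction. March1 encodes a membrane ubiquitin ligase that sends class II pairs and CD86 to degradation. It had 59.4 ± 13.6 CPM in Ifngr1_KO and 104 ± 20.004 CPM in WT (SD, n = 8), a log2 fold change of -0.82 (SE 0.13, adjusted p = 0.00588). The call of March1 was lost with the mitochondrial share as a covariate, at -0.68 (edgeR adjusted p = 0.168). Cd40, a costimulatory receptor and the target of the treatment, had 18.7 ± 8.19 CPM in Ifngr1_KO and 91.4 ± 30.9 CPM in WT (SD, n = 8), a log2 fold change of -2.32 (SE 0.15, adjusted p = 6.2e-06). March8, a related ligase that was not called as reported, had 425 counts in 8 of 8 libraries in Ifngr1_KO and 163 counts in 5 of 8 libraries in WT, of which 139 were in the WT library of mouse 7. It was higher in Ifngr1_KO in 7 of 8 mice, with a log2 fold change of 3.91 (SE 1.39, adjusted p = 0.188), and 4.65 without mouse 7 (edgeR adjusted p = 0.0464). Cd83, which protects class II from March1, had 23.8 ± 14.6 CPM in Ifngr1_KO and 41.5 ± 17.8 CPM in WT (SD, n = 8; log2 fold change -0.93, adjusted p = 0.136). DESeq2 called Cd83 lower (DESeq2 adjusted p = 0.0215).

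None of the other 10 endosomal genes, the cathepsins Ctsb, Ctsc, Ctsd, Ctsh, Ctsl and Ctsz among them, was called. Ctsd, an aspartic protease of lysosomes, had 11561 ± 2516 CPM in Ifngr1_KO and 12068 ± 1344 CPM in WT (SD, n = 8), with a log2 fold change of -0.09 (SE 0.10). Ctsb, a cysteine protease like cathepsin S, had 3072 ± 570.2 CPM in Ifngr1_KO and 3297 ± 417 CPM in WT (SD, n = 8), with a log2 fold change of -0.12 (SE 0.12). Ctsd and Ctsb were named for their high level, and the 10 endosomal genes had a median log2 fold change of -0.10. An unadjusted p under 0.05 was reached by 3 of the 10, beside 16.3% of all genes tested. The 3, named after their values were seen, were Ctsh, Sppl2a and Lgmn. Ctsh, an aminopeptidase, had 83.7 ± 19.0 CPM in Ifngr1_KO and 142 ± 28.1 CPM in WT (SD, n = 8; log2 fold change -0.77, adjusted p = 0.0573). Sppl2a, the intramembrane protease that clears the last fragment of the invariant chain, had 234 ± 46.9 CPM in Ifngr1_KO and 337 ± 58.6 CPM in WT (SD, n = 8; log2 fold change -0.54, adjusted p = 0.0627). Both were lower in Ifngr1_KO in 8 of 8 mice, and the groups overlapped. DESeq2 and limma-voom called both lower, and Ctsh was also called lower without the mouse block (edgeR adjusted p = 0.0122). Lgmn, an asparaginyl endopeptidase that makes early cuts in the invariant chain, lay the other way, with 34.0 ± 11.3 CPM in Ifngr1_KO and 21.2 ± 3.46 CPM in WT (SD, n = 8; log2 fold change 0.62, adjusted p = 0.286). It was higher in Ifngr1_KO in 7 of 8 mice, mouse 7 being the exception, and without mouse 7 it was called higher at 0.87 (edgeR adjusted p = 0.00504).

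The other chains and editors were low. H2-Oa encodes a chain of H2-O, the inhibitor of H2-DM. It had 14.3 ± 5.54 CPM in Ifngr1_KO and 25.3 ± 7.59 CPM in WT (SD, n = 8), lower in Ifngr1_KO in 7 of 8 mice, with a log2 fold change of -0.87 (SE 0.21, adjusted p = 0.0518). Without mouse 7 H2-Oa was called at -1.01 (edgeR adjusted p = 0.00877). With all mice, H2-Oa was called lower by DESeq2, by limma-voom and with DESeq2 size factors (edgeR adjusted p = 0.0497). It was also called lower with the B cell sum, or the Kupffer cell and monocyte sum, as a covariate. Its partner H2-Ob, named after its values were seen, did not pass the filter, with 153 counts spread over 8 of 8 libraries in Ifngr1_KO and 23 counts in 2 of 8 libraries in WT. In a fit with no filter H2-Ob had an edgeR adjusted p of 0.101. The costimulatory gene Cd80 had 27.4 ± 11.1 CPM in Ifngr1_KO and 33.0 ± 8.19 CPM in WT (SD, n = 8), with a log2 fold change of -0.37 (adjusted p = 0.584).

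For scale, 3 genes of MHC class I presentation are set beside the class II values, chosen with the values known and so given without a test. H2-K1, a class I heavy chain, had 2985 ± 546 CPM in Ifngr1_KO and 8833 ± 1190 CPM in WT (SD, n = 8), a log2 fold change of -1.57. Nlrc5, the class I counterpart of Ciita, had 40.02 ± 17.0 CPM in Ifngr1_KO and 156 ± 53.8 CPM in WT (SD, n = 8), a log2 fold change of -2.01. B2m, the light chain of class I, had 7139 ± 2477 CPM in Ifngr1_KO and 8257 ± 1757 CPM in WT (SD, n = 8), a log2 fold change of -0.24, lower in Ifngr1_KO in 5 of 8 mice and not called (adjusted p = 0.542). The log2 fold changes of H2-Aa, H2-Ab1 and H2-Eb1, at -0.54, -0.29 and -0.57, lay nearer to that of B2m than to that of H2-K1. That of Ciita was -1.67, with a wide SE of 1.07 and not called, and -1.10 without mouse 7, beside the -2.01 of Nlrc5. Within mice the log2 ratio of Ciita minus that of Nlrc5 averaged 0.96 ± 1.45 (SD, n = 8), with Ciita the higher in 6 of 8 mice.

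Levels of the 8 genes were compared with each other as CPM per kb of the union of annotated exons. Cd74 had 882 ± 192 CPM per kb in Ifngr1_KO and 1038 ± 202 in WT (SD, n = 8). Ctss followed with 211 ± 22.4 CPM per kb in Ifngr1_KO and 449 ± 66.0 in WT. The chains came next, in the order H2-Ab1, H2-Eb1 and H2-Aa. H2-Ab1 had 37.1 ± 8.00 CPM per kb in Ifngr1_KO and 45.2 ± 7.66 in WT, H2-Eb1 had 17.7 ± 5.37 in Ifngr1_KO and 25.5 ± 3.45 in WT, and H2-Aa had 9.31 ± 2.51 in Ifngr1_KO and 13.1 ± 1.89 in WT. H2-DMb1 had 4.74 ± 2.51 CPM per kb in Ifngr1_KO and 4.87 ± 1.53 in WT, and H2-DMa had 3.36 ± 0.86 in Ifngr1_KO and 3.63 ± 0.70 in WT. Ciita was lowest, with 0.193 ± 0.227 CPM per kb in Ifngr1_KO and 0.331 ± 0.225 in WT.

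Each gene in that order lay above the next in 8 of 8 libraries of both groups, except H2-DMb1 above H2-DMa, which held in 6 of 8 libraries of each group. With the longest transcript as the length, H2-DMa came above H2-DMb1, at 5.78 and 5.68 CPM per kb in Ifngr1_KO and at 6.24 and 5.83 in WT. Per length, Cd74 stood 14.2 ± 4.13 times above the sum of the 3 classical chains in Ifngr1_KO and 12.5 ± 2.47 times in WT (SD, n = 8). The ratio was 9.80 ± 2.75 in Ifngr1_KO and 8.84 ± 1.76 in WT with the longest transcript. These libraries therefore held roughly an order of magnitude more invariant chain transcript than transcript for the chains it escorts.

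**Figure D3:**
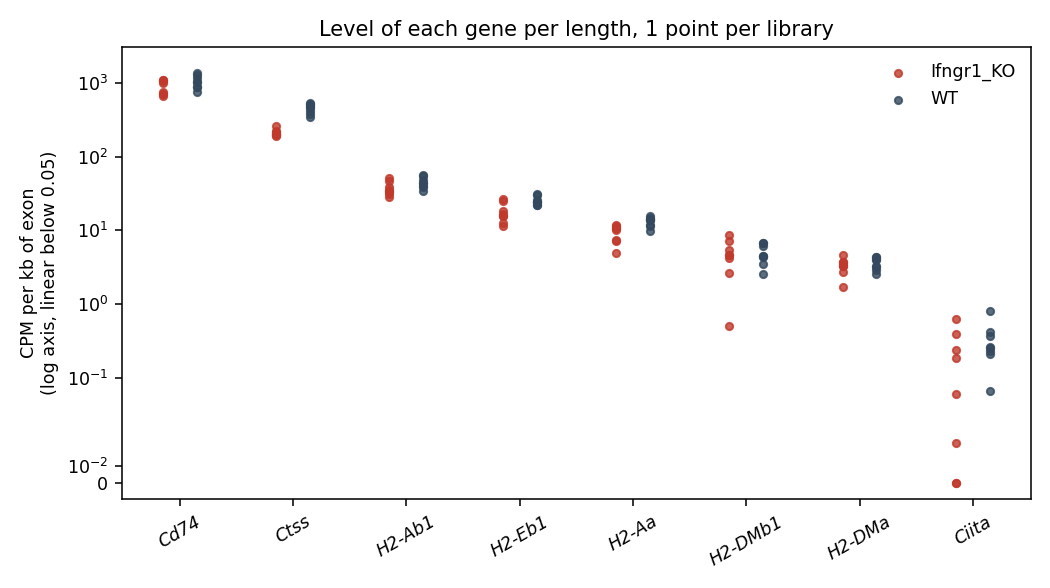
Level per kb of exon of the 8 genes on a log axis, 1 point per library, Ifngr1_KO left of WT for each gene. Cd74 lies above 661 CPM per kb in every library, the 3 classical chains lie between 4.91 and 55.8, and Ciita is lowest, with 2 Ifngr1_KO libraries at 0.

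Because B cells, dendritic cells and macrophages make class II, their markers were read in the same libraries. B cell markers summed to 20.5 to 69.8 CPM in Ifngr1_KO and 15.7 to 43.1 CPM in WT. All 10 B cell genes had counts in some library. Cd79a, Ms4a1 and Ebf1 were at 0 in no library, with means of 5.01, 1.89 and 15.3 CPM, Cd79b was at 0 in 1 of 16 libraries and Pax5 in 13. The exact sign-flip test of the sum gave p = 0.336 (adjusted p = 0.5375 over 8 lists). Dendritic cell markers summed to 0.463 to 23.1 CPM in Ifngr1_KO and 0.4502 to 6.49 CPM in WT. Of the 10 genes, Flt3 was at 0 in 1 of 16 libraries, Xcr1 in 3, Clec9a in 11 and Cd209a in 15. The means of these 4 genes were 0.222, 0.275, 0.192 and 0.0391 CPM. With the B cell sum as a covariate Ctss was called at a log2 fold change of -1.13, and the other 7 genes were not called.

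The 10 Kupffer cell markers (resident liver macrophages) summed to 39.7 to 82.7 CPM in Ifngr1_KO and 53.7 to 154 CPM in WT, lower in Ifngr1_KO in 8 of 8 mice. The exact sign-flip test gave p = 0.00781, the smallest that 8 mice can give, adjusted p = 0.0313 over 8 lists. Of the 10 genes, Vsig4 was at 0 in all 16 libraries, Clec4f in 15, Timd4 in 14, Folr2 in 8, Marco in 7 and Cd5l in 2. Cd5l had a mean of 1.80 CPM. Most of the sum was Adgre1, with 36.0 ± 14.5 CPM in Ifngr1_KO and 76.5 ± 25.8 CPM in WT (SD, n = 8), the only gene of that list that fell. The complement genes C1qa, C1qb and C1qc had means of 5.39, 14.1 and 5.78 CPM. They were at 0 in no library and were not called. The 8 monocyte markers summed to 2660 to 5804 CPM in Ifngr1_KO and 3983 to 6073 CPM in WT, also lower in Ifngr1_KO in 8 of 8 mice, with the same exact p of 0.00781 and adjusted p of 0.0313. With library totals in place of TMM that difference was lost (-0.13 on the log2 scale, exact p = 0.414). That sum was mostly Nr4a1, Csf1r and Ly6c2, of which Ly6c2 fell, whereas Ccr2 had a mean of 1.11 CPM. With the Kupffer cell and monocyte sum as a covariate, Ctss was called at -1.21. That covariate pooled both lists into 1 sum, most of it from the monocyte list, so it cannot adjust for Kupffer cells by themselves. It also holds Adgre1 and Ly6c2, which themselves fell in Ifngr1_KO. The part of these cells in the class II levels was not tested.

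Levels of Cd74, H2-Ab1 and Ctss were related to 6 of these lists over the 8 libraries of each genotype, in 36 relations, 12 of them added after the data were seen. Cd74 and the monocyte sum in WT had r = 0.835 (exact permutation p = 0.00258, adjusted p = 0.0464; n = 8) and rho = 0.833 (exact permutation p = 0.0154, adjusted p = 0.138; n = 8). Without the 2 libraries farthest from the median marker level r was 0.606. In Ifngr1_KO the same pair had r = 0.709 (exact permutation p = 0.0299, adjusted p = 0.269; n = 8), and 0.932 without its 2 farthest libraries. The rank relation therefore did not pass the adjustment in either genotype. The monocyte sum was highest in mice 4 and 5, with 5391 and 5804 CPM in Ifngr1_KO and 5507 and 6073 CPM in WT. The other mice reached 4962 CPM in Ifngr1_KO and 5327 CPM in WT. Mice 4 and 5 enter each r over all 8 libraries.

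H2-Ab1 and H2-Aa were highest in the same mice in both genotypes. Markers of hepatocytes, the main cell of the liver, split the mice into a pair with high levels and 6 with lower ones, and the pair was mice 4 and 5 in both genotypes. Their hepatocyte sums were 1611 and 1679 CPM in Ifngr1_KO and 1725 and 1728 CPM in WT. The other 6 mice had 463 to 659 CPM in Ifngr1_KO and 408 to 868 CPM in WT. H2-Ab1 was likewise highest in mice 4 and 5, with 131 and 120.0 CPM in Ifngr1_KO and 142 and 143 CPM in WT. The other 6 mice had 71.9 to 99.2 CPM in Ifngr1_KO and 87.8 to 125 CPM in WT, with no overlap in either genotype. Over all 8 libraries, H2-Ab1 and the hepatocyte sum had r = 0.949 in Ifngr1_KO (exact permutation p = 5.2e-04, adjusted p = 0.0188 over 36). In WT r was 0.800 (exact permutation p = 0.0160, adjusted p = 0.193). The rho was 0.857 in both genotypes (exact permutation p = 0.0107, adjusted p = 0.138). Both relations were among those added after the data were seen, and the split of the mice enters them. Within the 6 lower mice r was 0.884 in Ifngr1_KO (exact permutation p = 0.0222, adjusted p = 0.133 over 6; rho 0.714) and 0.392 in WT (exact permutation p = 0.435, adjusted p = 0.674; rho 0.657). H2-Aa was also highest in mice 4 and 5, with 44.4 and 43.9 CPM in Ifngr1_KO and 58.6 and 55.4 CPM in WT. The other mice reached 41.5 CPM in Ifngr1_KO and 53.6 CPM in WT. H2-Eb1 was highest in these mice in Ifngr1_KO, at 48.6 and 51.2 CPM. In WT it was not, with 47.6 CPM in mouse 4 and 59.2 CPM in mouse 6. Ctss in mice 4 and 5 lay inside the range of the other 6 mice in both genotypes. The hepatocyte sum itself had a lower value for Ifngr1_KO in 7 of 8 mice, at an exact p of 0.0625 and an adjusted p of 0.167 over 8 lists. Its part in the levels of H2-Ab1, H2-Aa and H2-Eb1 was not tested.

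**Figure D4:**
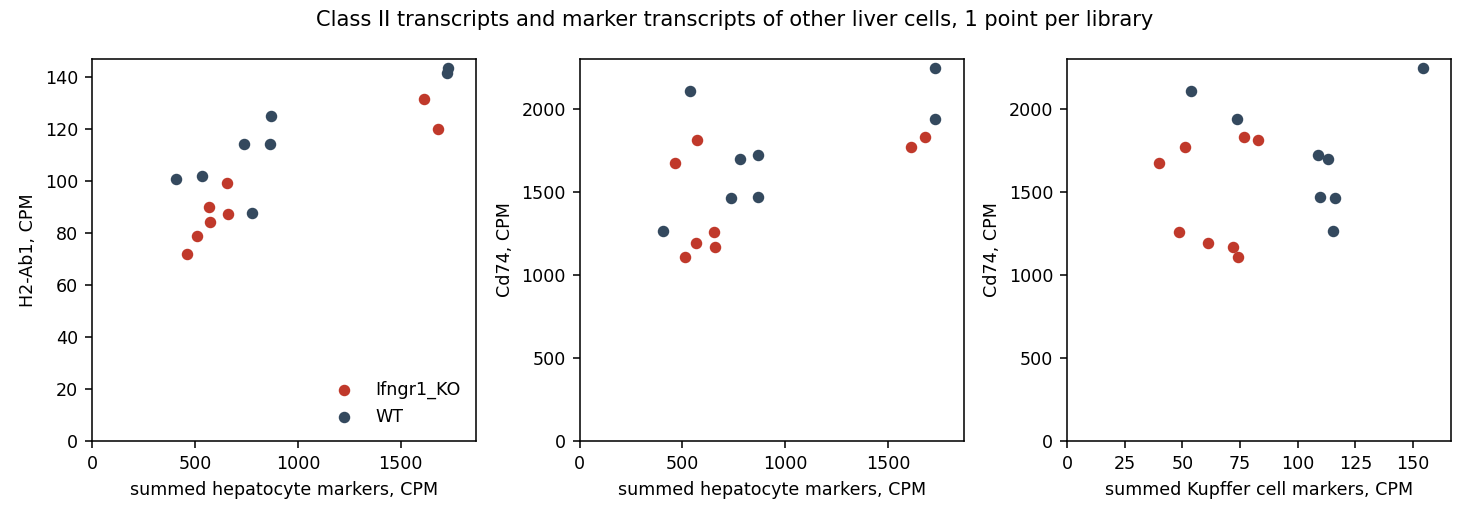
Level of H2-Ab1 or Cd74 in CPM against the summed level of hepatocyte or Kupffer cell markers in CPM, 1 point per library, Ifngr1_KO and WT in separate colours. At left, the 4 libraries of mice 4 and 5 lie at hepatocyte sums of 1611 to 1728 CPM and carry the highest H2-Ab1 levels of their genotype.

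Genes whose levels were most like those of 3 of the 8 were found by Spearman correlation over the 16 libraries, each value taken from the mean of its genotype. The libraries share mice in pairs, as well as preparation and depth. For Cd74 the highest were Trex1 (0.956), Zbp1 (0.953), Zfp36 (0.932), H2-Q7 (0.924) and Slc15a3 (0.918). For H2-Ab1 they were Ambp (0.932), Hpx (0.926), Apoa1 (0.891), Rnf5 (0.882) and Serpina1d (0.882), of which Ambp, Hpx, Apoa1 and Serpina1d encode plasma proteins made by hepatocytes. Mice 4 and 5, which stood apart in hepatocyte markers, enter these values. Without them, over 12 libraries, the correlations with H2-Ab1 were 0.853 for Ambp, 0.853 for Hpx, 0.783 for Apoa1, 0.888 for Rnf5 and 0.741 for Serpina1d. For Ctss they were Psme2 (0.894), Bcl2a1d (0.874), Rnpepl1 (0.856), Cxcl11 (0.853) and H3f3b (0.850). The 99th percentile over all genes was 0.768 for Cd74, 0.726 for H2-Ab1 and 0.694 for Ctss. Among the 8 genes the most alike pairs were H2-Ab1 with H2-Eb1 (0.694), H2-Ab1 with H2-Aa (0.626) and H2-Aa with Ciita (0.625). Ctss had 0.497 with Cd74 and 0.00882 with H2-Ab1.

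**Figure D5:**
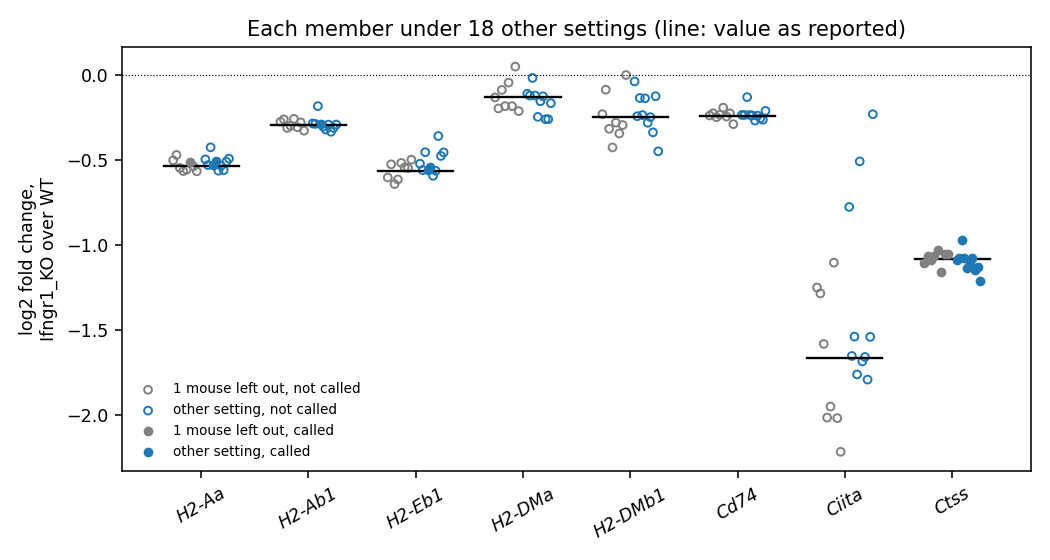
Log2 fold change (Ifngr1_KO over WT) of each of the 8 genes under 18 alternatives, in grey where 1 mouse is left out and in blue for another setting, with filled points for an adjusted p under 0.05 and a line at the value as reported. Ctss is filled throughout, between -1.21 and -0.97, H2-Aa, H2-Ab1 and H2-Eb1 are filled under some, and Ciita spreads from -2.22 to -0.23.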

How the data were processed

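RNA came from sorted liver neutrophils of 8 chimeric mice. Per the labels' protocols, 1 ng of RNA was primed with oligo-dT, amplified over 13 PCR cycles (SMART-Seq v4) and prepared with Nextera XT, so counts hold PCR copies and no strand. The deposited table gives estimated counts per Ensembl gene, as whole numbers, without scaling between samples. Salmon 0.14.2, DESeq2 1.22.1 and mm10 were used, per the submitters' processing notes; the role of each, and any filter, is not given in the sources used here. Genes were named and placed with the GENCODE annotation of GRCm38, and 123 identifiers without a name held at most 0.00991% of any library. Of all identifiers, 25008 had a count.

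Counts were tested in R 4.3.3 with edgeR 4.0.16: filterByExpr by genotype (9851 genes, 99.7% of counts), TMM scaling, and the robust quasi-likelihood F-test of genotype, blocked by mouse, adjusted by Benjamini-Hochberg over all genes tested at a threshold of 0.05. SEs were taken as |log2 fold change| divided by the root of F, and 95% intervals use them with 7 degrees of freedom. CPM are TMM-scaled, and marker sums and correlations use log2(CPM + 0.5). Marker sums were tested by flipping signs over the 8 mice (exact, two-sided). Totals of 12.5 to 21.7 M counts set the precision, and intervals cover no PCR error. The script was tested on simulated data.

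The design text states that both libraries of a number came from 1 mouse, and the block was kept for that reason. The deviations of the 2 libraries from their group means correlated within mice by 0.138 on average (0.0246 to 0.314) and between mice by -0.0180. Alternatives were no block, DESeq2 size factors or library totals, DESeq2 1.42.0 or limma-voom (limma 3.58.1) with quality weights, other filters, covariates, and each mouse left out. The genes, lists and marker sets were chosen with earlier results of these data known. Named pathway genes are those called and, per role, up to 2 with the highest mean CPM; Ifngr1 checks the labels, and 1 counted pathway gene is not reported here. Of the marker lists not described, T and NK cell markers summed to 1.84 to 13.7 CPM in Ifngr1_KO and 2.38 to 10.6 CPM in WT (exact sign-flip adjusted p = 0.583), and liver endothelium to 79.3 to 165 CPM in Ifngr1_KO and 100.3 to 168 CPM in WT (exact sign-flip adjusted p = 0.266).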

Additional observations from a re-analysis of the deposited data

Results flagged for a closer look

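Of 58 groups of 8 libraries checked for a value far from the rest, 8 held one, where chance alone gives about 1 in 20. In each, the gap to the nearest library, as a share of the group's range, was over Dixon's 95% critical value. In the Ifngr1_KO library of mouse 7, Ctss was highest at 353 CPM (next 300.5 CPM), Ctsb lowest at 1837 CPM (next 2886 CPM) and March1 lowest at 31.3 CPM (next 55.2 CPM). In that library the neutrophil marker sum was highest at 83274 CPM (next 53193 CPM) and the B cell marker sum highest at 69.8 CPM (next 38.9 CPM). In the WT library of the same mouse, Ciita was highest at 7.82 CPM (next 4.03 CPM). H2-DMb2 was lowest in the WT library of mouse 3 at 2.38 CPM (next 8.38 CPM). The dendritic cell marker sum was highest in the Ifngr1_KO library of mouse 5 at 23.1 CPM (next 11.1 CPM).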

How the results depend on the processing

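Ctss was called lower under all 18 alternatives (edgeR adjusted p at most 0.0064 among the edgeR fits). Of 8 genes, 4 were called with DESeq2 (H2-Aa, H2-Ab1, H2-Eb1 and Ctss), 3 with limma-voom (without H2-Ab1) and 1 to 2 with a mouse left out; H2-Aa was the second, without mouse 7. Over all genes DESeq2 called 1060 (572 lower, 488 higher), limma-voom 597, the mitochondrial covariate 113, library totals 266 (164 lower, 102 higher, with a median log2 fold change of 0.16 over all genes) and fits without 1 mouse 162 to 413. Of the 30 pathway genes, DESeq2 called 10 (9 lower, 1 higher), limma-voom 9 (8 lower, 1 higher), the Kupffer cell and monocyte covariate 8 (6 lower, 2 higher) and fits without 1 mouse 5 to 8, with 8 (6 lower, 2 higher) without mouse 7. Without the mouse block 268 genes were called, 215 of them shared, with 1 of the 8 genes and 6 pathway genes, so no call among the 8 changed. Signs turned for some uncalled values. Not all of them were near 0 as reported, with Cd80 at -0.37, Creb1 at -0.23 and the dendritic cell ratio at -0.22. With 1 mouse left out, H2-DMa ran from -0.21 to 0.049 (positive without mouse 8), Nfyc from -0.023 to 0.23 (negative without mouse 9) and H2-DMb2 from -0.34 to 0.069 (0.042, 0.0079 and 0.069 without mice 5, 6 and 9). Nfyc was -0.030 without the block and -0.055 with limma-voom. The mitochondrial covariate gave Creb1 0.043, H2-DMb2 0.20, Ctsb 0.17, Ctsd 0.027 and Cd80 0.18, the Kupffer cell and monocyte covariate Ctsb 0.13, Ctsd 0.11 and Cd80 0.079, and library totals Ctsd 0.025. Of the marker sums, the neutrophil log2 ratio ran from -0.11 to 0.038 (negative without mice 7 and 8) and the dendritic cell ratio from -0.71 to 0.11 (positive without mouse 9) with 1 mouse left out. The dendritic cell ratio was 0.028 with a pseudocount of 5, and the endothelium ratio 0.017 with library totals. The monocyte sum lost its difference with library totals (-0.13, exact sign-flip p = 0.414). With a pseudocount of 5, r was 0.00111 for Cd74 and dendritic cell markers in Ifngr1_KO and -0.0569 for H2-Ab1 and the same markers in WT. The cause of these moves was not tested. Low counts limit Ciita and H2-DMb1 most.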
